A study of Rattus norvegicus with 13 samples.

Results

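The brains described here were divided by how much Slc17a6 signal they gave. Slc17a6 encodes VGLUT2, a transporter that loads glutamate into synaptic vesicles. All 13 arrays of the series were used. The high side held the 3 arrays with a log2 Slc17a6 signal above 7.5, and the low side held the 10 arrays below 7.0. The sides were therefore selected on a measured value, the Slc17a6 signal of each array, and Slc17a6 itself was left out when the sides were compared across other genes. Differences between the sides are given as a description of these 13 arrays. Maternal diet, which the labels assign, was the factor tested.

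RNA came from the brain, cerebellum removed, of males of the inbred rat strain Fischer F344. The 7 control arrays came from offspring of mothers on a control diet, and the 6 fructose arrays from offspring of mothers on a high fructose diet, both fed from day 1 of gestation through lactation. Every rat was weaned at day 20 onto standard chow, and brains were taken at 15 months. The labels name neither litters nor separate animals, so the spread between arrays may be technical or include litters.

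In rodent brain, VGLUT2 is the main vesicular glutamate transporter of the thalamus, hypothalamus and brainstem. Its relative VGLUT1, encoded by Slc17a7, is the main form in the cerebral cortex and hippocampus. Signal for either in RNA of a whole forebrain depends both on the regions in a sample and on expression within them. In such bulk tissue, fewer cells of a type and less RNA per cell cannot be told apart.

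Signals are log2 values normalized by the authors, in which a difference of 1 is a 2-fold difference. The number of arrays limits the precision. Array medians lay between 7.99 and 8.07, and correlations between pairs of arrays lay between 0.9853 and 0.9976 across probe sets. Neuronal genes were bright, with low-side medians of 13.38 for Snap25 and 12.68 for Syt1. The cerebellar granule cell gene Gabra6 had a low-side median of 5.61. The leading principal component held 29.6% of the variance, and its sign was set to make the high side positive. Control replicate 8 scored 20.4, against 13 for fructose replicate 4 and 7.82 for fructose replicate 3. The 10 low arrays ran from -16.0 in control replicate 2 to 5.39 in control replicate 7. Control replicate 1 was next lowest, at -12.5. Control replicates 2 and 1 also had the narrowest distributions. Their interquartile ranges were 2.15 and 2.19, against 2.37 to 2.45 in the high arrays. Whether this component follows array spread was not tested.

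Slc17a6 signal was 9.15 in control replicate 8, 8.04 in fructose replicate 4 and 7.83 in fructose replicate 3. In the low side it ran from 6.07 in control replicate 4 through a median of 6.51 to 6.82 in control replicate 7. These are the values that chose the sides. Fructose replicate 3 was the member just inside the high side and control replicate 7 the one just outside it, 1.01 apart. The side means were 8.34 ± 0.71 (SD, n = 3) and 6.49 ± 0.22 (SD, n = 10), a difference of 1.85. Of the probe sets tested, 18.7% had a mean below the low-side mean of Slc17a6, so the gene was measured toward the dim end of the array in those brains.

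Slc17a6 was at nearly the same mean in both diets. It averaged 6.92 ± 1.01 (SD, n = 7) in control brains and 6.92 ± 0.79 (SD, n = 6) in fructose brains. The exact two-sided permutation test over 1716 splits gave p = 0.99. One control and 2 fructose arrays were on the high side, so both diets stood on both sides and diet could be held in the comparison.

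**Figure D1:**
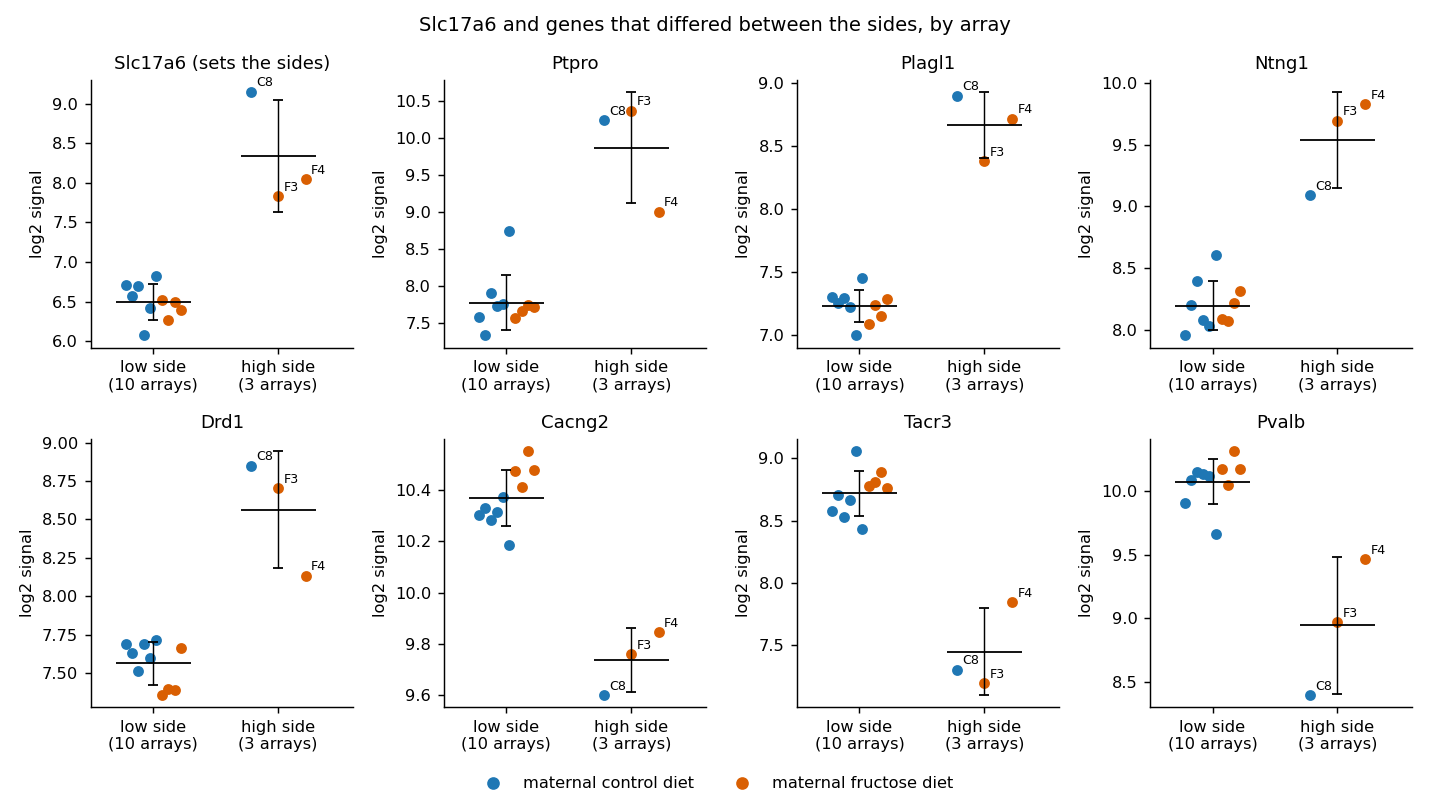
Log2 signal of Slc17a6, which sets the sides, and of 7 other genes in each of the 13 arrays, by side (C control, F fructose, with replicate numbers for the high side); horizontal lines are means, error bars are 1 SD, and vertical axes differ between panels and do not start at 0. Ptpro, Plagl1, Ntng1 and Drd1 are higher in all 3 high arrays than in any low array, while Cacng2, Tacr3 and Pvalb are lower in all 3.

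Across 15632 probe sets, the sides were compared with diet in the model, and a probe set was called at a limma adjusted p under 0.05 (Benjamini-Hochberg). The call sorts the differences by their size against the spread within sides. It is no independent evidence, because the sides were set on a gene measured on the same arrays. There were 538 calls (3.44%), of which 271 (1.73%) were higher and 267 (1.71%) lower on the high side. At an unadjusted p under 0.05 there were 2234 (14.3%). The 3 high arrays lay above every low array in 305 probe sets (1.95%) and below every low array in 272 (1.74%), and 357 of the 538 calls were among these. Over all tested probe sets the median difference was -0.0057, close to 0. Differences past 2-fold were found in 28 higher and 21 lower calls.

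One array weighed heavily on these counts. Without control replicate 8 there were 183 calls, of which 169 were among the 538. Control replicate 7, the low array nearest the threshold, was also the highest low array for 121 of the 271 higher calls, 44.6% against 6.8% over all tested probe sets. It was the lowest low array for 120 of the 267 lower calls, 44.9% against 14.4%. Of the 40 genes named by rule that were called, 22 kept their call without control replicate 8. Those that lost it were Trhr, Nnat, Htr2c, Hpcal1, Slc9a2, Ephb6, Ramp3, Hap1, Cck, Pou3f1, Penk, Rxrg, Vip, Pax6, Ptprz1, Pdgfra, Ankrd9 and Rsph9. In 15 of these 18 the difference stayed within 1.5 times of its value on all arrays. Some barely moved, as Hpcal1 (1.37 and 1.33 without that array), Htr2c (1.43 and 1.34) and Rxrg (0.91 and 0.94). Others moved more, as Hap1 (0.88 and 0.62), Penk (1.05 and 0.73) and Pax6 (0.32 and 0.22). Beyond 1.5 times were Ramp3 (-0.31), Cck (-0.34) and Pdgfra (0.21 without that array). Any other single array left out cost at most 5 of the 40 calls (fructose replicate 4). Of 8 further called list members, Ndn, Lmo4, Tac1, Rgs9 and Aqp4 also lost their call without control replicate 8, with Lmo4 at -0.34 and Rgs9 at 0.36. Foxp1, Itpr1 and Kcnc1 kept theirs, and Aqp4 lost its call without several other arrays too.

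The 12 named genes highest on the high side differed by 1.25 to 2.15. Ptpro, a receptor-type tyrosine phosphatase, gave 10.23 in control replicate 8, 10.36 in fructose replicate 3 and 9.0 in fructose replicate 4. Its low-side values ran from 7.34 through a median of 7.73 to 8.74 in control replicate 7, and the difference was 2.15 ± 0.26 (SE). Plagl1, an imprinted zinc finger transcription factor, gave 8.90, 8.38 and 8.71 in the same order against 6.99 to 7.45 in the low side. No overlap was seen for either gene. The Plagl1 difference was 1.47 ± 0.09 (SE), with an SD of 0.26 in the high side and 0.13 in the low side.

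Nrp2, a neuropilin receptor of semaphorins, was 10.02, 9.78 and 9.60 against 7.97 to 9.16 in the low side, a difference of 1.38 ± 0.17 (SE). Ntng1, a netrin-G axon guidance protein, was 9.09, 9.69 and 9.82 against 7.96 to 8.61, a difference of 1.31 ± 0.14. Htr2c, a serotonin receptor, was 10.13, 10.10 and 9.52 against 7.16 to 9.16, a difference of 1.43 ± 0.33. All 3 genes were higher in each high array than in any low array. Htr2c varied most within the low side, where its median was 8.61.

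Nnat, neuronatin, an imprinted membrane protein of neurons, was 12.05, 10.77 and 11.84 in the high arrays against 9.18 to 10.72, so fructose replicate 3 exceeded control replicate 7 by little. Neurotensin, the peptide encoded by Nts, was dim, at 6.44, 6.12 and 6.94 against 4.96 to 5.98. Pkib, an inhibitor of protein kinase A, differed by 1.29 ± 0.18 and Pbx3, a homeodomain transcription factor, by 1.25 ± 0.16, both without overlap. By contrast, Trhr, the receptor of thyrotropin-releasing hormone, overlapped. It was 8.01, 6.60 and 7.5 against 5.56 to 6.77, with control replicate 7 at the top of the low range and above fructose replicate 3. Hpcal1, a neuronal calcium sensor, and Slc9a2, a sodium and hydrogen exchanger, also overlapped, with differences of 1.37 ± 0.26 and 1.32 ± 0.27.

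Other genes had less signal in the high brains. The largest difference, -2.51 ± 0.45 (SE), belonged to C14h1orf146, at 5.59, 5.69 and 5.50 against a wide low range of 6.14 to 9.06. Olr59, an odorant receptor gene, was 5.85, 6.37 and 6.79 against 8.03 to 8.71, a difference of -2.27 ± 0.13. Cd34, a sialomucin known from endothelium and blood progenitors, was 8.32, 8.81 and 8.93 against 9.66 to 10.73. All 3 were without overlap, and the low values of C14h1orf146 were far more spread than those of Olr59.

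Pvalb, the calcium-binding protein parvalbumin of fast-spiking interneurons, was 8.40, 8.97 and 9.47 against 9.66 to 10.31, a difference of -1.21 ± 0.14. Syt2, a fast calcium sensor of transmitter release, was 7.93, 7.62 and 7.85 against 8.21 to 9.61, a difference of -1.34 ± 0.22. Tacr3, the neurokinin B receptor, was 7.31, 7.20 and 7.85 against 8.43 to 9.06. Each high array lay below every low array for these genes. Likewise Efna5, an ephrin ligand, fell by 1.26, Ephb6, an Eph receptor, by 1.23, and Cbln2, a synapse-organizing cerebellin, by 1.13 on the log2 scale. Cd200r1, a receptor of myeloid cells, differed by -1.55 ± 0.24 and Tpte2, a lipid phosphatase, by -1.22 ± 0.10. Stac2 differed by -1.23 ± 0.19.

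**Figure D2:**
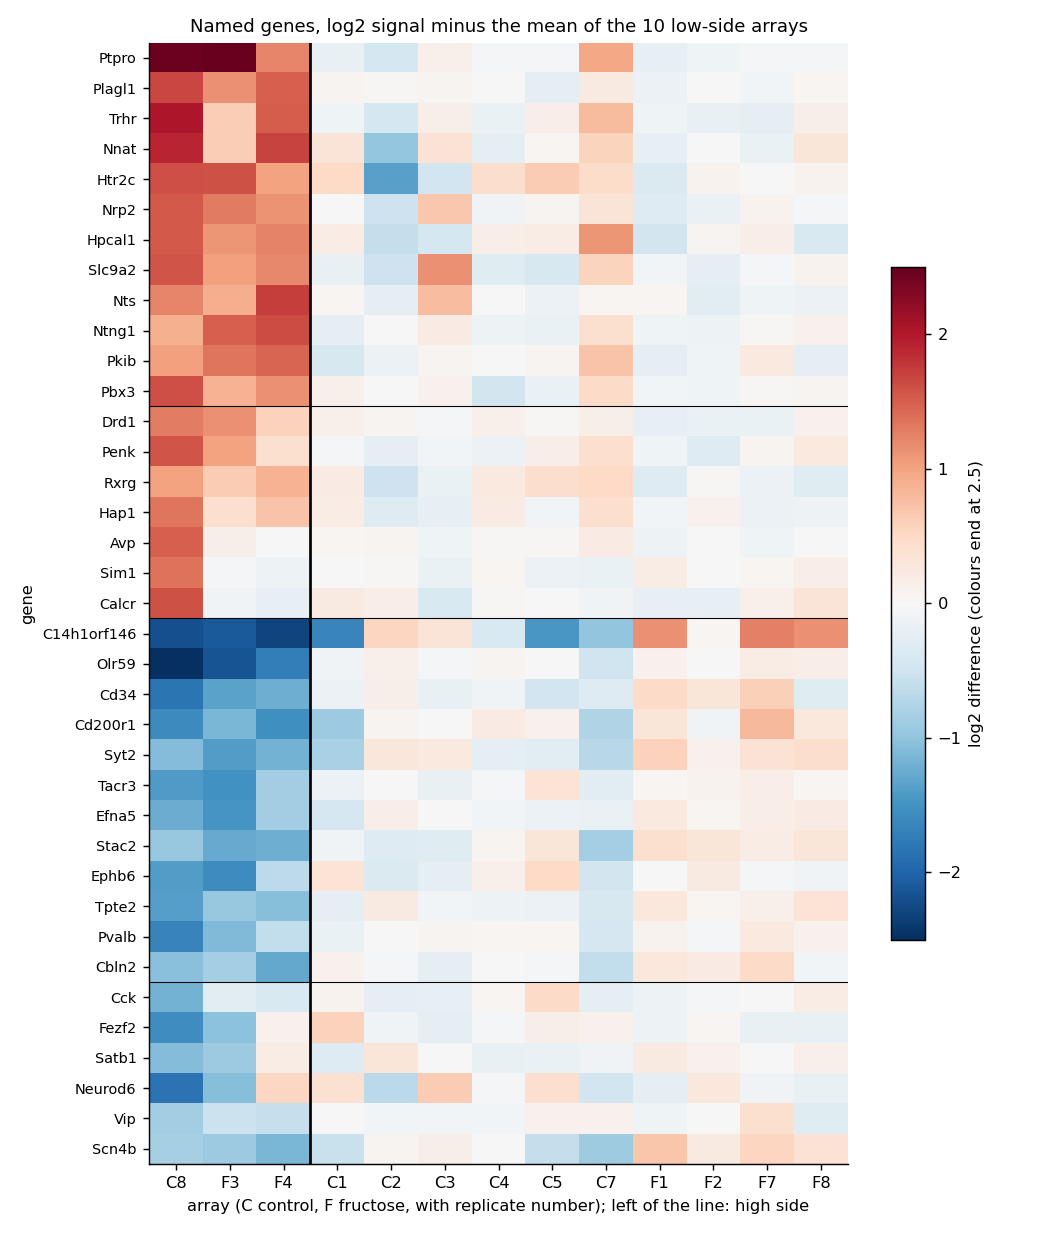
Log2 signal of named genes minus the mean of the 10 low arrays, on a colour scale that ends at 2.5, with the 3 high arrays left of the black line and the low arrays to its right. Higher genes lie at the top and lower genes further down, and Avp, Sim1 and Calcr are raised in control replicate 8 and not in the other 2 high arrays.

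Regional gene lists were described next, each by how many measured members were called and by the median difference. Of 20 measured thalamic genes, 1 was called higher (Ntng1) and 1 lower (Ramp3, a receptor activity-modifying protein, -0.53 ± 0.10). That is 10% of the list, beside 3.44% of all probe sets tested. The median difference was 0.0033, and list means were 7.77 to 7.90 in the high arrays against 7.75 to 7.84 in the low. Fructose replicate 3, at 7.77, lay inside the low range, while fructose replicate 4 (7.88) and control replicate 8 (7.90) lay above it. Without control replicate 8 the median was -0.0568. Lef1, a transcription factor of the thalamus, was 8.37, 8.30 and 8.43 in the high arrays against 8.19 to 8.60, a difference of -0.09 ± 0.07. Prkcd, a protein kinase C gene strong in thalamus, differed by -0.17 ± 0.12. Without fructose replicate 3 the Prkcd difference was 0.0275. Lef1 and Prkcd thus did not go with the sides, while Ntng1 did. The high brains are not called thalamic here, and which regions the samples held was not tested. Tcf7l2 and Rora were not analysed here.

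Calretinin, encoded by Calb2, was 8.67 in control replicate 8 against 7.10 and 7.5 in the other high arrays and 6.79 to 7.6 in the low. No habenular gene was called among 9 measured, and neither were any among 7 subthalamic and mamillary genes or 32 midbrain and brainstem genes. Each list had 0% called, beside 3.44% over all probe sets, which for lists this short is little different. The median differences of these lists were 0.045, -0.033 and -0.043. Cbln4, a cerebellin, reached 10.42 in fructose replicate 4 alone, against 7.77 and 6.77 in the other high arrays and 7.34 to 8.0 in the low. Each of these high values belonged to 1 array.

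Hypothalamic genes gave 3 higher calls of 34 measured (8.82%, beside 1.73% higher over all probe sets): Nnat, Hap1 and Ndn. None of the 3 kept its call without control replicate 8. Hap1, a huntingtin-associated protein, was 10, 9.07 and 9.36 against 8.33 to 9.08, a difference of 0.88 ± 0.16. Ndn, encoding the imprinted protein necdin, was 10.17, 9.93 and 10.09 against 9.27 to 9.88, a difference of 0.51 ± 0.11. The list median was -0.0056 while the mean difference was 0.17, so the sign rested on few genes. Vasopressin, encoded by Avp, was 8.93 in control replicate 8 against 7.57 and 7.44 in the fructose high arrays.

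Of 20 measured cortical genes, none was called higher and 2 were lower (10%, beside 3.44% called over all probe sets): Cck, the neuropeptide cholecystokinin, at 10.04, 10.95 and 10.85 against 10.99 to 11.70, and Lmo4, a LIM-domain regulator, at -0.53 ± 0.13. The median difference was -0.066, and 0.0172 without control replicate 8. Neurod6, a transcription factor of cortical projection neurons, was 7.88 in control replicate 8 and 8.65 in fructose replicate 3 but 10.25 in fructose replicate 4, against 9.04 to 10.35. Fezf2, a determinant of subcortical projection neurons, followed the same order, with 7.54, 8.06 and 9.2 against 8.87 to 9.66. Neither of these passed, and fructose replicate 4 lay inside the low range for both. The cortical list means of both fructose high arrays, 10.03 and 10.10, lay inside the low range of 9.95 to 10.16, and that of control replicate 8 was 9.74. Tbr1 was not analysed here.

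Striatal genes were called most often among the regional lists. Of 25 measured, 5 were higher and 2 lower (28%, beside 3.44% over all probe sets), and 21 of 25 differences were above 0, with a median of 0.20. Without control replicate 8 the median was also 0.20. Of the 5 higher calls only Drd1 was then kept, and Penk, Rxrg, Tac1 and Rgs9 lost theirs. The 2 lower calls, Scn4b and Foxp1, were kept, though Scn4b lost its call without fructose replicate 4. Drd1, the dopamine receptor of direct-pathway neurons, was 8.85, 8.70 and 8.13 against 7.36 to 7.72, a difference of 1.06 ± 0.10. Penk, encoding the enkephalin precursor of indirect-pathway neurons, was 11.12, 10.55 and 9.96 against 9.23 to 9.98. Tac1, the substance P precursor, was 8.18, 7.64 and 7.28 against 6.74 to 7.24. In all of these control replicate 8 was highest and fructose replicate 4 was nearest the low side, and for Penk it overlapped.

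Rxrg, a retinoid receptor, and Rgs9, a regulator of G protein signalling, were called higher at 0.91 ± 0.17 and 0.60 ± 0.12. Drd2, the receptor of indirect-pathway neurons, did not pass, at 0.28 ± 0.11. The list did not move as a block. Foxp1, a transcription factor, was 9.39, 9.55 and 9.98 against 10.22 to 10.47, a difference of -0.77 ± 0.08, and Scn4b, a sodium channel subunit, differed by -1.11 ± 0.23. List means were 8.28 to 8.57 in the high arrays against 8.16 to 8.34 in the low, where control replicate 7 was highest.

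Hippocampal genes gave 1 lower call of 15 (6.67%, beside 3.44% over all probe sets), Pou3f1, at -0.40 ± 0.07. That call was lost without control replicate 8. The list median was -0.0060 and the mean difference 0.16, with 7 differences above 0 and 8 below. C1ql2, a synaptic C1q-like protein, differed by 1.00 ± 0.28 without passing, and by 0.576 without fructose replicate 4. Wfs1 and Neurod1 were also higher, by 0.76 ± 0.23 and 0.65 ± 0.24, without passing. Olfactory bulb genes gave 1 higher and 1 lower call of 11 (18.2%, beside 3.44% over all probe sets). These were Pax6, a transcription factor, at 0.32, and Vip, the vasoactive intestinal peptide gene, at -0.68 ± 0.11. Both lost their call without control replicate 8. The list median was -0.035. Cdhr1, the member of largest difference, was at 0.93 ± 0.34 without passing, and at 0.353 without fructose replicate 3.

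**Figure D3:**
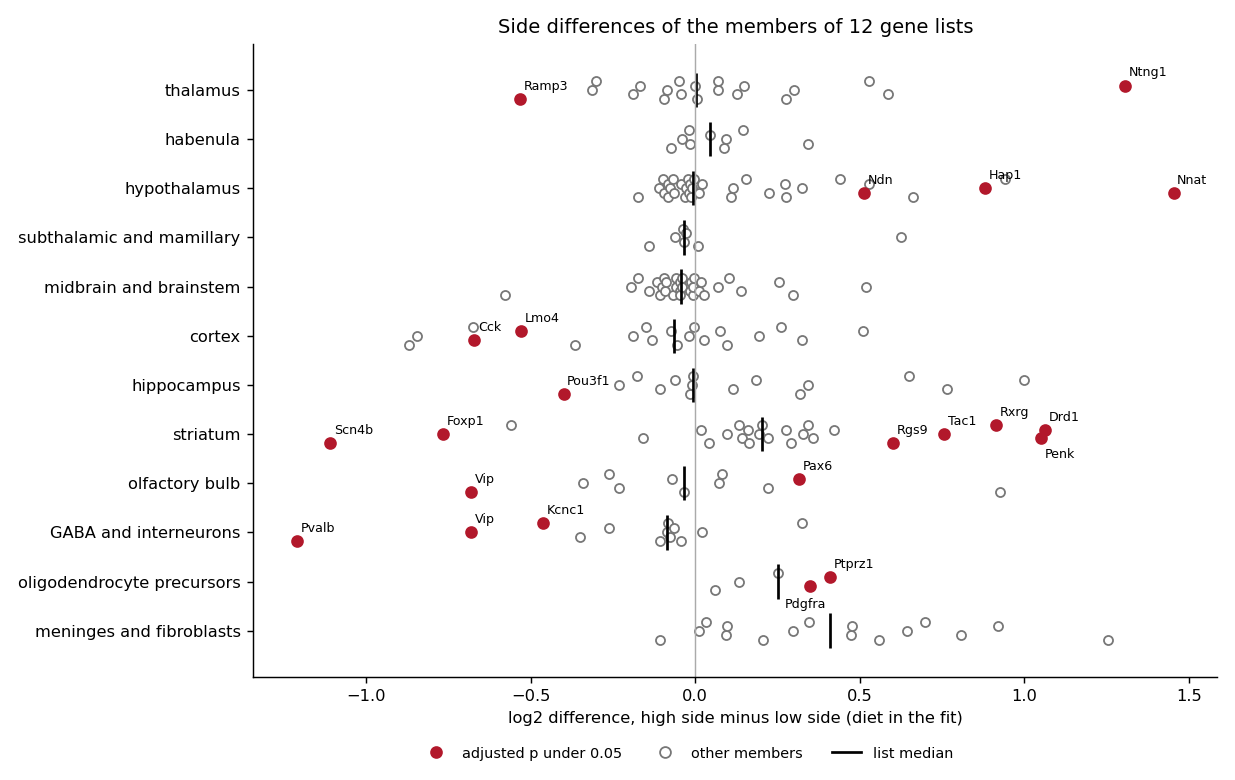
Log2 difference between the sides, diet held, for each measured member of 12 gene lists; filled points passed the adjusted p threshold, open points did not, and black bars mark list medians. Striatal points lie mostly to the right of 0, and thalamic, hypothalamic and midbrain points centre near 0.

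None of 7 vesicular transporter genes other than Slc17a6 was called (0%, beside 3.44% over all probe sets). Slc17a7, encoding VGLUT1, was 12.25, 12.66 and 12.41 against 12.26 to 12.52, a difference of 0.03 ± 0.08, and Slc32a1, the vesicular GABA transporter, differed by 0.02 ± 0.09. VGLUT3, encoded by Slc17a8, differed by 0.09 ± 0.08. The 95% interval of the difference ran from -0.15 to 0.20 for Slc17a7, from -0.17 to 0.22 for Slc32a1 and from -0.09 to 0.27 for Slc17a8, so differences within these bounds cannot be told from 0.

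Markers of other cell types moved to different degrees, and their part in the side differences was not tested. Interneuron genes gave 3 lower calls of 13, 23.1% beside 1.71% lower over all probe sets. These were Pvalb, Kcnc1, a potassium channel gene, and Vip, which is also on the olfactory bulb list. List means of 9.23 to 9.29 in the high arrays lay below the low range of 9.38 to 9.61. The median difference was -0.085 and the mean -0.24, so the gap in list means rested largely on few genes. Of the 13 differences, 11 were below 0 and 2 above. Oligodendrocyte precursor genes gave 2 higher calls of 5, 40% beside 1.73% higher over all probe sets (Ptprz1, a phosphatase, 0.41 ± 0.07, and Pdgfra, a growth factor receptor, 0.35 ± 0.08), with list means of 8.92 to 9.11 against 8.50 to 8.88. Among 15 astrocyte genes 1 was called higher (6.67%, beside 1.73%), the water channel Aqp4, at 0.41 ± 0.11. Gfap, the astrocyte filament protein, differed by 0.59 ± 0.25 without passing. Neuronal, myelin, microglial, endothelial, choroid plexus, pituitary and blood lists had no call (0% each, beside 3.44% over all probe sets). Of 16 cerebellar genes 2 were called lower (12.5%, beside 1.71%), Pvalb again and Itpr1, a calcium release channel, at -0.64 ± 0.10. Differences of this list were above 0 for 5 genes and below 0 for 11. Calb1 went the other way, at 0.66 ± 0.18, without passing. The cerebellar markers Fat2 and Pcp2 had low-side medians of 6.93 and 7.28.

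No meningeal gene was called of 16 (0%, beside 3.44% over all probe sets), yet 15 differences were above 0 and the median was 0.41. Within control arrays the median was 0.79, and within fructose arrays, that is without control replicate 8, it was 0.093. Ogn, a proteoglycan, was 10.41, 7.90 and 10.36 in the high arrays against 7.28 to 10.10, where control replicate 7 was highest. Dcn, decorin, was 9.82, 8.26 and 10.99 against 7.96 to 8.95. Fructose replicate 3 was thus below the low median of 8.53 for Ogn and of 8.47 for Dcn, while Ptpro and Drd1 were high in it. What meninges in a sample contributed was not tested.

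**Figure D4:**
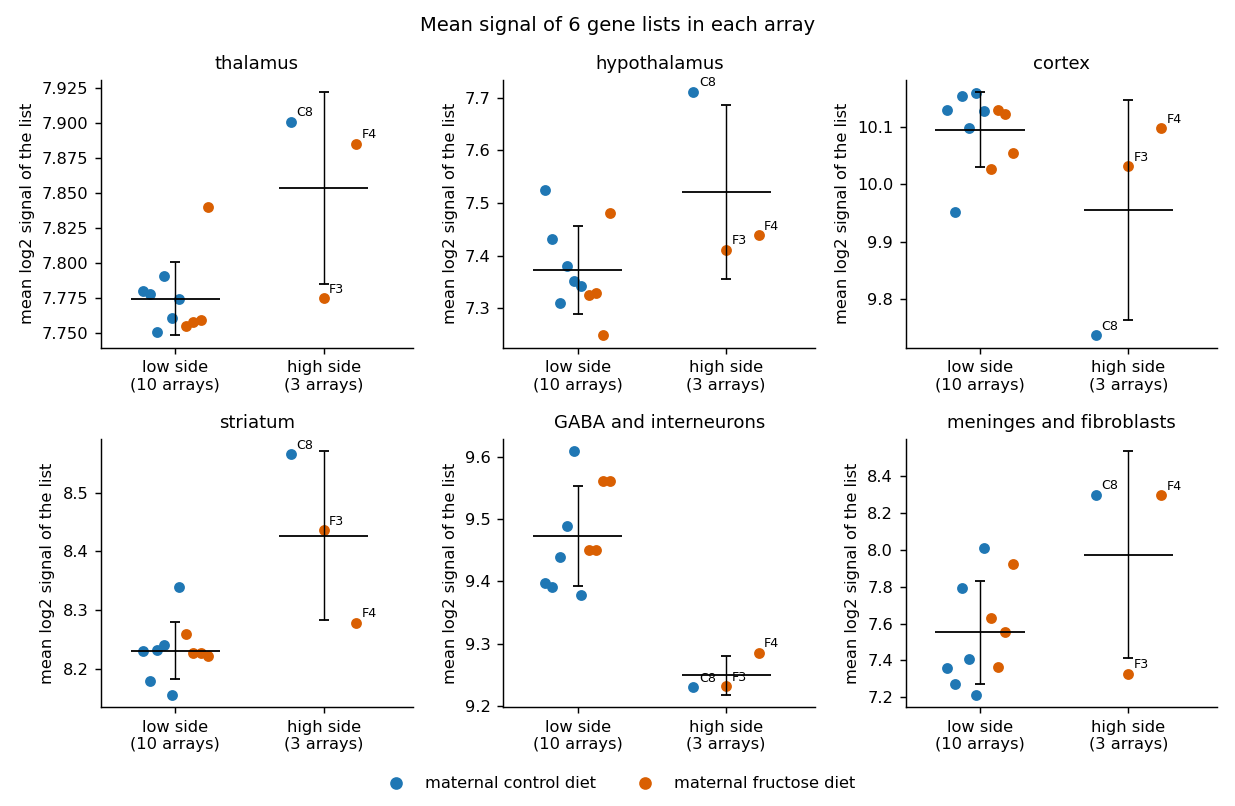
Mean log2 signal of the measured members of 6 gene lists in each array, by side and diet; horizontal lines are means, error bars are 1 SD, and vertical axes differ between panels and do not start at 0. The interneuron means of the high arrays lie below those of every low array, and the thalamic mean of fructose replicate 3 lies inside the low range.

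The 3 high arrays were not alike. Among the 271 higher calls control replicate 8 was the highest of the 3 in 153, fructose replicate 3 in 65 and fructose replicate 4 in 53. Among the 267 lower calls control replicate 8 was the lowest in 156. Within each diet, which share no arrays, the side difference of Ptpro was 2.39 in control and 2.0 in fructose brains, and that of Drd1 was 1.21 and 0.97. For Neurod6 it was -1.88 and -0.22, and for Fezf2 -1.62 and -0.35. The control value of each gene rests on 1 high array, so that array and diet cannot be told apart.

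A term for side by diet, chosen after the data were seen, called 4 of 15632 probe sets (0.0256%) by limma, with 923 (5.9%) at an unadjusted p under 0.05. Sim1, a transcription factor of the paraventricular hypothalamus, was 7.99 in control replicate 8, 6.60 and 6.52 in the fructose high arrays and 6.47 to 6.82 in the low side, and its side difference in fructose minus that in control brains was -1.60. The same quantity was -1.31 for Avp, -1.76 for Calcr, the calcitonin receptor, and -0.918 for a dim probe set of Gnas, a G protein gene. These 4 were singled out after their values were seen. Each value measures how far control replicate 8, the only high control array, lay from the rest, and shows no difference between diets.

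Within the 10 low arrays alone, no gene passed a limma test of slope on Slc17a6 (0 called, 278 or 1.78% at an unadjusted p under 0.05, smallest adjusted p = 0.9999). The pattern most like Slc17a6 over these 10 arrays was that of Pbx3, with r = 0.89 and rho = 0.82. Without the 2 arrays farthest from the median, control replicates 4 and 7, r was 0.71. H3f3b, a histone gene, had r = 0.86 and fell to 0.64 in the same way. Opposite was Gas8, a ciliary gene, with r = -0.90 and -0.91 without those arrays. For Ptpro r was 0.43 over the 10 arrays and -0.03 without control replicates 4 and 7. With so few arrays such values are imprecise.

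Diet was then tested with side held. By limma, 0 of 15632 probe sets were called (0%), the smallest adjusted p was 0.9998 and 529 (3.38%) had an unadjusted p under 0.05. Without side in the model the counts were 0 and 348 (2.23%). The 95% interval of the diet difference lay within 1.5-fold for 99.3% of probe sets. Ankrd9, Pnkd and Lbh were higher after fructose by 0.17, 0.22 and 0.21, and Zmym1, Krt18, Rsph9, Chmp1b and Or7g21 were at -0.20, -0.23, -0.30, -0.19 and -0.19, with none passing. The odorant receptor gene Or8s8 had the smallest unadjusted p among those higher after fructose, at 0.43 ± 0.08 (SE) with side held and 0.24 without it. Cacng2, encoding the AMPA receptor partner stargazin, was 0.19 ± 0.04 higher with side held and 0.06 without it, and did not pass. Its side difference was -0.68 ± 0.05, the high arrays reading 9.60, 9.76 and 9.85 against 10.18 to 10.55.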

How the data were processed

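Brain RNA was hybridized to 13 Affymetrix arrays. The deposited log2 values were made by the authors with RMA in R 3.0.1, per the submitters' processing notes, and were not normalized again. Of 29214 probe sets, 15310 carried 1 gene symbol, 323 several and 13581 none in the platform annotation. Slc17a6 was removed and 15632 probe sets were tested. Groups came from the labels and sides from the Slc17a6 value. limma 3.58.1 (R 4.3.3; lmFit and eBayes, Benjamini-Hochberg) was fitted to side and diet on all arrays, to diet with side held, to the slope on Slc17a6 within the low side and, added after seeing the data, to side by diet. The method was checked on simulated data. Gene lists were described by counts and medians, 1 probe set per gene, the one of highest mean. Named genes were up to 12 per direction with the largest side difference, up to 4 members of each regional list and 2 of each other list, fixed marker genes, those most like Slc17a6 in the low side and those of smallest p for diet. Members and lists were chosen with earlier results of these data known. Alternatives left out each array, changed the normalization, filters, weights and covariates, or added a replicate block. The arrays give no read depth. What p-values weigh is variation among these arrays.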

Additional observations from a re-analysis of the deposited data

Results flagged for a closer look

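In 234 groups of 6 or 7 arrays, 43 had an array far from the others in its diet group; chance gives about 1 in 20 for items not chosen by their values. Many of these were named for a large side difference, Slc17a6 set the sides, and control replicate 8 is the only high control array, so that rate is no fair measure here. Control replicate 8 was that array in 25, ranked among the control arrays. It was highest for Slc17a6 (9.149), the thalamic list mean (7.901), Plagl1 (8.897), Calb2 (8.672), Avp (8.926), Glra1 (7.615), Drd1 (8.85), Penk (11.12), Agt (10.68), Ptprz1 (11.19), Sim1 (7.99), Gnas (7.326) and Calcr (7.827). It was lowest for Olr59 (5.849), Cd34 (8.317), Tacr3 (7.305), Efna5 (8.088), Tpte2 (5.332), Pvalb (8.401), Ramp3 (7.405), Fezf2 (7.544), Cck (10.04), Vip (7.183), Or8s8 (5.907) and Cacng2 (9.6).

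Among the fructose arrays, replicate 3 was highest for the striatal list mean (8.436) and Cdhr1 (9.645) and lowest for Fezf2 (8.062), Satb1 (9.656) and Prkcd (7.62). Among the same arrays, fructose replicate 4 was highest for Htr5b (7.761), Chrna3 (7.376), Cbln4 (10.42), Calca (7.421), Agt (10.14) and Dcn (10.99). Within their own diet group, control replicate 1 was highest for Calca (6.911), control replicate 5 for Trh (9.69), fructose replicate 8 for Slc6a5 (8.084) and Trh (7.494) and fructose replicate 2 for Gas8 (8.867), while control replicate 4 was lowest for Ythdc1 (9.353) and fructose replicate 1 for Gnas (6.195).

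A limma interaction term, added after seeing the data, singled out Sim1 (-1.6), Gnas (-0.918), Avp (-1.31) and Calcr (-1.76), as the side difference in fructose minus that in control brains. The control high side is 1 array, which cannot be told apart from diet.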

How the results depend on the processing

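The side comparison called 538 probe sets. With a replicate block it called 113 (105 of them shared), within control arrays alone 96 (73 shared) and within fructose arrays alone 202 (173 shared). Leaving out each array gave 183 to 584. Other normalizations, filters, weights and covariates gave 468 to 757. Same-numbered samples had deviations correlated from -0.333 to 0.186, and 0 of 12 correlated best with their own number. No pairing by number was thus seen, but this check cannot exclude one. Of the 40 named called genes, 20 kept their call with the replicate block and 22 without control replicate 8, and none turned direction. The diet difference of Slc17a6 was -0.193 as a difference of medians and -0.219 to 0.377 with each array left out. The thalamic median was 0.0379 without dim probe sets, -0.0296 with the replicate block and -0.0568 within fructose, and -0.0568 (without control replicate 8) to 0.0194 with each array left out. The cortical median was -0.187 within control, 0.0172 within fructose and -0.184 to 0.0172 with each array left out; the striatal one was 0.259 within control. The hypothalamic median ran from -0.0167 to 0.016 with each array left out. The cause of each change was not tested. Diet with side held and the low-side slope called 0 by limma in every alternative run; for diet, 344 to 1098 probe sets had an unadjusted p under 0.05 and the smallest adjusted p of any alternative was 0.331, without fructose replicate 8. Dim genes have little signal over background.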
